A study of Homo sapiens with 6 samples.

Results

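BDKRB1 encodes the B1 bradykinin receptor, and it was described here together with its close partners in the kinin system: the B2 receptor BDKRB2, the kinin precursor KNG1, the kallikrein KLK1 and the peptidases CPM, CPD and ACE. All 7 genes had a probe set on the array, out of 14884 genes measured, and each is given by whichever of its probe sets was brightest on average. BDKRB1 was selected on its difference between exposed and unexposed cells in these same arrays, so its values are a description and carry no test. The other 6 genes were taken by name for their place in the pathway, with earlier results of these data known. The arrays hold total RNA of the human glioblastoma line U-87 MG, a long-established culture, with 3 unexposed and 3 exposed biological replicates. Exposed cells received RGFIELDS electromagnetic fields without interruption for 54 h, starting 24 h after seeding, in a culture box within a Faraday chamber. The fields were directed at hsa-miRNA-381, a mutated alpha-kinase 2 gene, HSP70 and CHI3L1, none of which is a kinin gene. Unexposed cells were kept in a second box outside that chamber, so the field and the box cannot be told apart in any difference given here. All cells of both groups are the same line in the same serum-containing medium, and one line limits how far the values can stand for glioblastoma.

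Kinins are short peptides cut out of the plasma protein kininogen by kallikreins, and they dilate vessels, raise vascular permeability and cause pain. Bradykinin itself binds the B2 receptor, which most tissues carry all the time. Once a carboxypeptidase has taken off the last arginine, the shortened peptide binds the B1 receptor instead, which is scarce in healthy tissue and is induced by injury and inflammatory cytokines. Both receptors signal mainly through Gq proteins, phospholipase C and calcium, and their genes lie next to each other on chromosome 14.

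Because the genes of both receptors had higher values in exposed cells, the sequences in front of them are shown. The windows hold the 250 bases before the annotated transcript start from RefSeq, on build GRCh38.p14 and on the plus strand. That of BDKRB1 is chr14:96255960-96256209 and that of BDKRB2 is chr14:96204589-96204838. Capitals mark the longest run of bases that the windows share, searched on both strands, and the run lies on the same strand in both.
BDKRB1: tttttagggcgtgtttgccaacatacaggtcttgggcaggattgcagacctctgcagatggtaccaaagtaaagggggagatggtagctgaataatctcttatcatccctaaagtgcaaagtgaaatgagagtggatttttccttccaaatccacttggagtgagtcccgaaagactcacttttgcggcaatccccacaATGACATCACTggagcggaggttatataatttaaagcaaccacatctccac
BDKRB2: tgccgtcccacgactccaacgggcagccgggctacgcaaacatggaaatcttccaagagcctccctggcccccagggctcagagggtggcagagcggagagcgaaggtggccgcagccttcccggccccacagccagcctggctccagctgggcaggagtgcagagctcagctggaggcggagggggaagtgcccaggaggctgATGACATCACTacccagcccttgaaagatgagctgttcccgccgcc
The shared run ATGACATCACT is 11 bases long and starts 51 bases before the BDKRB1 start and 46 bases before the BDKRB2 start. It stood in 17 of 27305 such windows, 1 per gene symbol (0.062%, either strand). Of these 17 genes 6 were measured, and the 4 that are not receptors had log2 differences of -0.21 to 0.19. Of the 4, 0 passed the threshold, beside 3.06% of all genes. The lowest, LTN1, had every exposed value below every unexposed one, as 13.8% of all genes did. Whether the run goes with a difference was not tested. The windows differ in composition, with 44.8% G or C for BDKRB1 and 66.4% for BDKRB2. Neither window held a match, on either strand, to the strict TATA box letters TATAAA (11.1% of windows did), to the AP-1 letters TGANTCA (6.60%), to the letters TGACG found in cyclic AMP response elements (21.7%) or to the NF-kB consensus (5.05%). The looser letters TATANA, in 18.3% of windows, matched in the BDKRB1 window 29 bases before the start, where they read the same on both strands, and not in that of BDKRB2. These are exact matches of letters alone, and near forms were not searched. The shared run holds the letters TGACA, which differ from TGACG in the last base only.

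BDKRB1 (probe set 16788036) stood at 7.62, 6.93 and 7.51 in unexposed replicates 1, 2 and 3, and at 8.45, 8.81 and 8.34 in exposed replicates 1, 2 and 3. These and all levels given here are log2 values after RMA (robust multi-array average), as deposited. Every exposed array was above every unexposed one, and unexposed replicate 2 was the lowest array by a clear margin. The group means were 8.53 ± 0.25 and 7.35 ± 0.37 (SD, n = 3 each), a log2 difference of 1.18 (SE 0.19), or 2.26-fold. Leaving out single arrays gave differences of 0.97 to 1.31, the lowest being that without unexposed replicate 2. BDKRB1 was measured by a single probe set.

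BDKRB2 (probe set 16788023), the receptor for intact bradykinin, followed the same course. It stood at 6.50, 6.13 and 6.45 in unexposed and at 7.28, 7.39 and 7.03 in exposed replicates 1, 2 and 3. The groups did not overlap, unexposed replicate 2 was again the lowest array, and exposed replicate 2 again the highest. BDKRB2 rose from a mean of 6.36 ± 0.20 to one of 7.23 ± 0.19 (SD, n = 3 each), a difference of 0.87 with a 95% interval of 0.57 to 1.17, or 1.83-fold (limma with Benjamini-Hochberg adjustment over all genes, adjusted p = 0.0298). In this fit 3.06% of all genes passed an adjusted p of 0.05, 1.4% being higher and 1.67% lower in exposed cells, and 13.2% had every exposed value above every unexposed one. The difference stayed between 0.76 and 0.97 whichever array was left out, and it was 0.53 (adjusted p = 0.0125) with the mean of both BDKRB2 probe sets. Its call was lost without unexposed replicate 1 (adjusted p = 0.0523), unexposed replicate 2 (0.0904), unexposed replicate 3 (0.0988), exposed replicate 1 (0.120) or exposed replicate 2 (0.105). An exact permutation test of 3 against 3 arrays cannot give a two-sided p below 0.1. A further, dimmer BDKRB2 probe set (16796469) stood at 4.51, 4.57 and 4.37 in unexposed and at 4.58, 4.84 and 4.61 in exposed cells, a log2 difference of 0.20 with an interval of -0.09 to 0.48. Its groups did not overlap either, and the annotation used here does not say which part of the gene it reads.

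**Figure D1:**
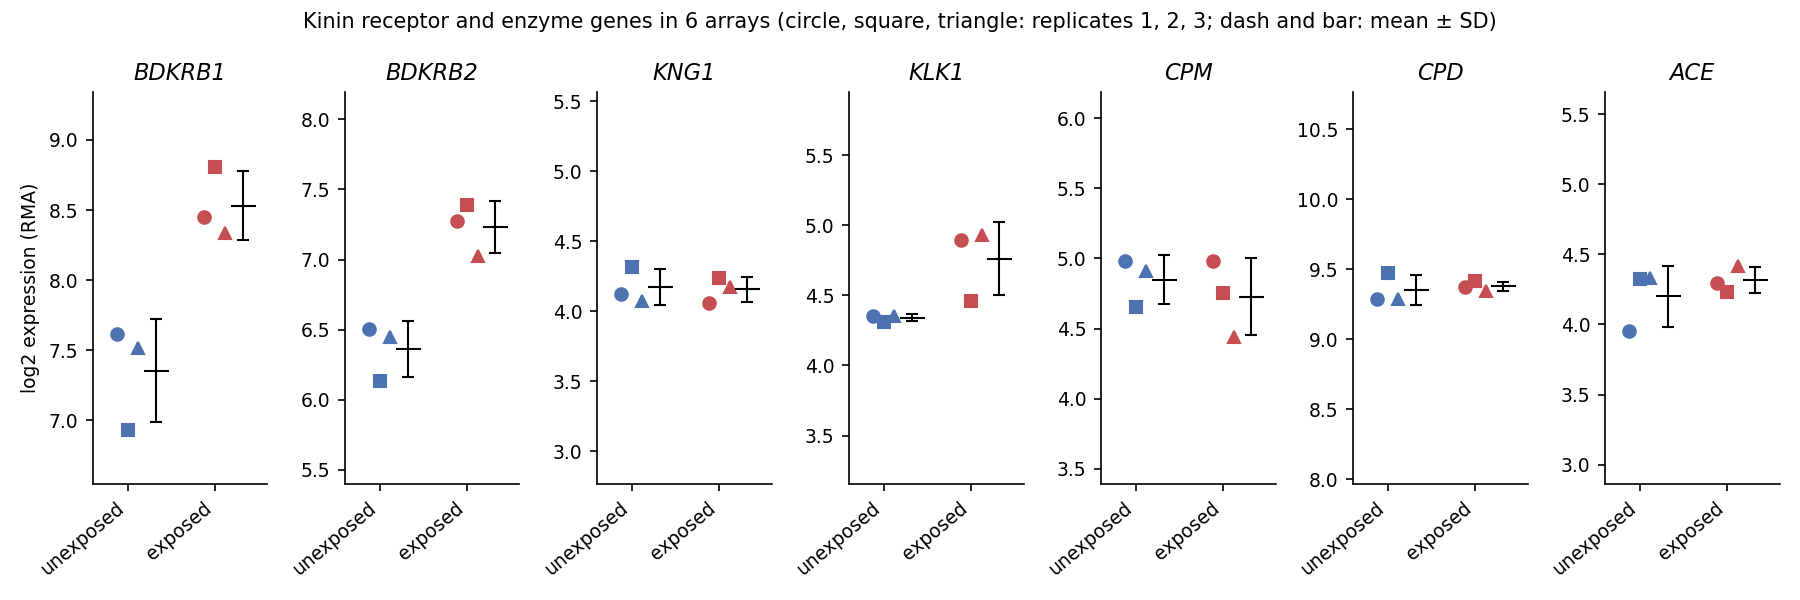
Log2 expression (RMA) of the 7 kinin genes in each array, with unexposed arrays in blue and exposed arrays in red, symbols for replicates 1 to 3, and a dash with a bar for the mean ± SD (n = 3 per group). Every panel spans the same number of log2 units: BDKRB1 and BDKRB2 separate the groups widely, KLK1 by less, and KNG1, CPM, CPD and ACE overlap.

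Within each array the BDKRB1 value exceeded the BDKRB2 value by 1.11, 0.80 and 1.07 log2 units in unexposed and by 1.17, 1.42 and 1.31 in exposed replicates 1, 2 and 3. Different probe sets cannot be set against each other for level, but the distance between them was larger in each exposed array than in each unexposed one. That shift follows in part from the choice of BDKRB1 for its rise, and it was not tested.

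The genes that supply kinins gave low values. KNG1 (probe set 16962486), the kininogen from which kinins are cut and which is made chiefly by the liver, stood at 4.13, 4.32 and 4.07 in unexposed and at 4.06, 4.24 and 4.18 in exposed cells. These values lie close to the array medians of 3.96 to 3.99, and the groups overlapped. Its log2 difference of -0.02 (95% interval -0.31 to 0.28) did not pass (limma adjusted p = 0.972), and the further KNG1 probe set (16949348) was at -0.07. KLK1 (probe set 16874647), the tissue kallikrein that releases kinin from kininogen, stood at 4.35, 4.31 and 4.35 in unexposed and at 4.90, 4.46 and 4.93 in exposed cells. All 3 exposed values lay above the unexposed ones, with exposed replicate 2 close to them. Its log2 difference of 0.42 (95% interval 0.08 to 0.77) did not pass over all genes (limma adjusted p = 0.173).

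The peptidases among the named genes did not separate the groups. CPM (probe set 16767335), a membrane carboxypeptidase that makes the B1 ligand by removing the last arginine of a kinin, stood at 4.98, 4.65 and 4.91 in unexposed and at 4.98, 4.76 and 4.44 in exposed cells. Its log2 difference was -0.12 (interval -0.50 to 0.26, limma adjusted p = 0.771). CPD (probe set 16832768), a carboxypeptidase of the same specificity found mainly in the secretory pathway, stood at 9.29, 9.47 and 9.29 in unexposed and at 9.37, 9.41 and 9.35 in exposed cells. Its values were the tightest of the 7 genes, and the difference was 0.03 (interval -0.13 to 0.18, limma adjusted p = 0.900). ACE (probe set 16836896), the angiotensin-converting enzyme that inactivates kinins, stood at 3.95, 4.32 and 4.33 in unexposed and at 4.30, 4.23 and 4.42 in exposed cells. These are near the array medians, and the difference was 0.12 (interval -0.22 to 0.45, limma adjusted p = 0.752). Thus 1 of the 6 tested genes, BDKRB2, passed over all genes, while the intervals of KNG1, CPM, CPD and ACE leave out a change as large as that of BDKRB2.

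Around the receptors on chromosome 14, the difference was not shared by all genes. In the order of the RefSeq annotation, BDKRB2 and BDKRB1 follow one another with the pseudogene CKS1BP1 between them. Of the list, 10 genes beside BDKRB1 were measured, and BDKRB2 alone passed (10%, beside 3.06% of all genes). C14orf132, the nearest measured gene of the list on the BDKRB2 side, stood at 6.71, 6.55 and 6.99 in unexposed and at 7.14, 7.30 and 7.03 in exposed cells. The groups just failed to overlap, and its log2 difference was 0.41 (interval 0.12 to 0.70, limma adjusted p = 0.128). ATG2B, an autophagy gene on the BDKRB1 side, had a difference in the other direction of -0.19 (interval -0.35 to -0.03, limma adjusted p = 0.198). VRK1, a kinase gene farther along that side, was at -0.42 (interval -0.72 to -0.13, limma adjusted p = 0.123). For ATG2B and VRK1 the groups did not overlap either, with exposed values below. Over all genes 27% had no overlap in either direction. The remaining 6, GSKIP, PAPOLA, GLRX5, SNHG10, TCL1A and TCL1B, lay between -0.19 and 0.16. These neighbours are named by position, and C14orf132, ATG2B and VRK1 were singled out after their values were seen.

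**Figure D2:**
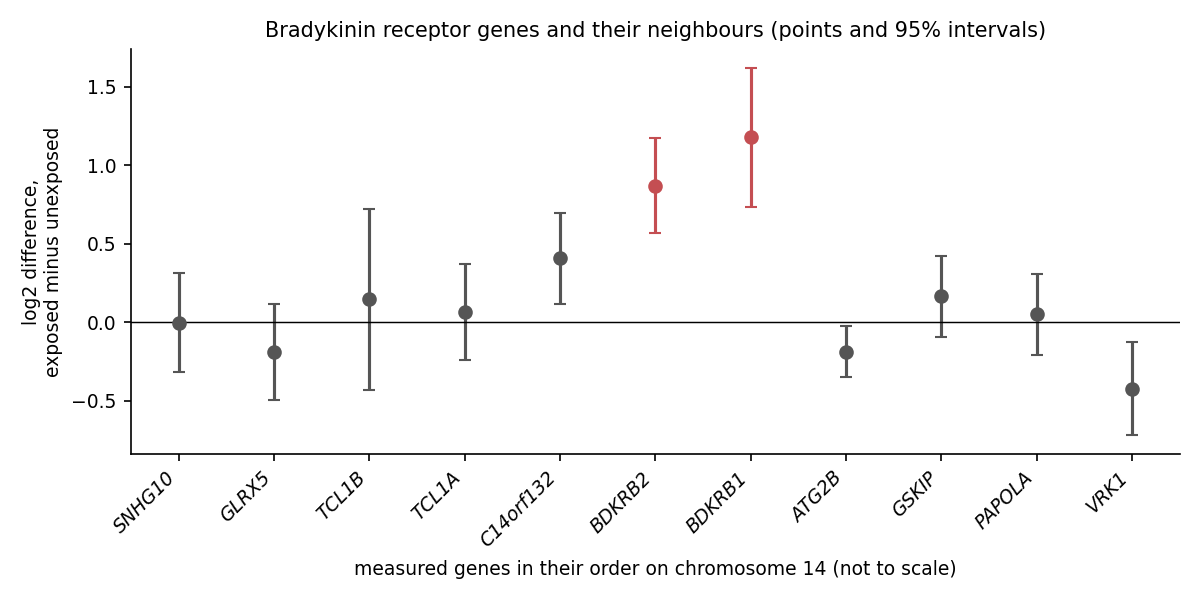
Log2 difference (exposed minus unexposed, points) with its 95% interval (bars) for the measured genes on both sides of the bradykinin receptor genes, in chromosomal order and not to scale. The receptors, in red, stand at 0.87 and 1.18, while the other genes lie between -0.42 and 0.41.

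The array pattern of BDKRB1 was matched closely by other genes. Likeness was measured as Pearson's r of log2 values over the 6 arrays, among 1411 genes whose SD over the arrays was at least 0.3. Symbols of clones, loci, open reading frames and similar kinds were left out before these were counted and ranked. Likeness is given as a description because all of these points share the difference between groups. The 10 genes most like BDKRB1 were RHOB (0.999), AASS (0.997), MIR329-1 (0.994), GGCX (0.994), ELMO2 (0.993), SCD (0.992), RANBP3L (0.991), FURIN (0.991), BDKRB2 (0.990) and LINC03033 (0.989). Spearman's rho was 1 or 0.943 for each of them. BDKRB2 was thus 9th of the 1411, and 77 of the 1411 had an r above 0.95.

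RHOB, a small GTPase gene of the actin cytoskeleton, stood at 7.76, 7.19 and 7.64 in unexposed and at 8.44, 8.84 and 8.37 in exposed cells, so that it was lowest in unexposed replicate 2 and highest in exposed replicate 2, as BDKRB1 was. Over the 6 arrays r with BDKRB1 was 0.635 for KLK1, 0.114 for ACE, -0.06 for CPM, -0.06 for CPD and -0.26 for KNG1. After each group's mean was taken off, r was 0.941 for BDKRB2, -0.472 for KLK1 and -0.658 for ACE. It was then 0.592 for CPM, -0.617 for CPD and -0.459 for KNG1, also as a description.

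Among the 10 genes, AASS acts in lysine breakdown, GGCX carboxylates vitamin K-dependent proteins, SCD desaturates fatty acids and FURIN cleaves proproteins in the secretory pathway. Their log2 differences were 0.61, 0.73, 0.66 and 0.53. ELMO2, which acts with DOCK proteins in cell migration, was at 0.71, and RANBP3L had the widest difference of the 10 at 2.40. The probe set named for MIR329-1, which does not tell a mature microRNA from its precursor, was at 0.59. All 10 were picked by their likeness to a gene chosen in the same contrast, so their differences are a description.

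**Figure D3:**
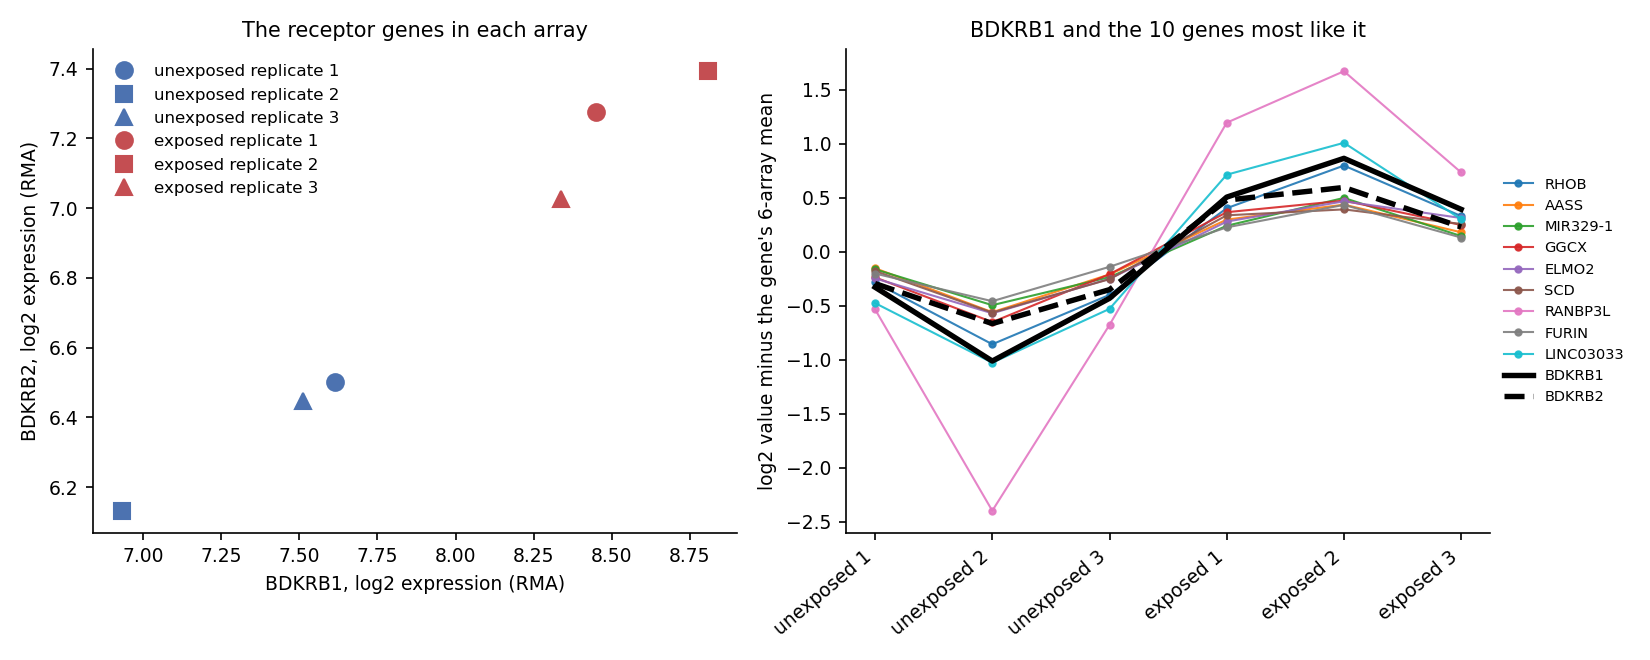
Left, BDKRB2 against BDKRB1 in each of the 6 arrays (log2 RMA values, unexposed in blue, exposed in red); the arrays run from unexposed replicate 2 at the lower left to exposed replicate 2 at the upper right. Right, each gene's log2 value minus its own 6-array mean for BDKRB1 (thick line), BDKRB2 (dashed) and the other genes of the 10 most like BDKRB1; the lines join arrays for legibility only and all dip at unexposed replicate 2.

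Most measured genes of the wider kinin pathway did not pass the threshold. In the list of genes for kinin release, which holds kininogen, kallikreins and contact factors, 17 of 27 entries were measured. By limma 0 passed, beside 3.06% of all genes, and 1 (5.88%), KLK1, had an unadjusted p under 0.05, as 18.9% of all genes did. The list's median log2 difference was 0.08, beside 0.00 over all genes, and its members ran from -0.26 for the coagulation factor F11, which was at -0.08 without unexposed replicate 2, to 0.42 for KLK1. KLK5 (0.20) and KLK3 (-0.21), kallikrein-related peptidases of skin and prostate, had intervals that include no change, and KLK3 was at -0.06 without exposed replicate 3.

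In a list of peptidases and their relatives, drawn up around kinin breakdown, 22 of 31 entries were measured. Of these 3 rose, 0 fell and 19 did not pass, or 13.6% called beside 3.06% of all genes, with a median difference of 0.01. DPP4, a surface peptidase that removes dipeptides from peptide ends, stood at 6.96, 7.17 and 7.06 in unexposed and at 7.93, 8.01 and 7.67 in exposed cells. It rose by 0.81 (SE 0.10, limma adjusted p = 0.0287), with the groups well apart. ERAP2, which trims peptides in the endoplasmic reticulum, rose by 0.34 (SE 0.07, limma adjusted p = 0.0444), and PREPL, a relative of prolyl endopeptidase, rose by 0.34 (SE 0.07, limma adjusted p = 0.0469). Both calls lie close to the threshold and were lost in 12 of 16 alternatives, among them every fit without an array and centring on array medians (0.0572 and 0.0567) or on ribosomal protein genes (0.0574 and 0.0532). Whether the members that rose cleave kinins was not tested here, and they are not the main kinin-inactivating enzymes. Of those enzymes, ACE is given above. MME, the neutral endopeptidase neprilysin, had means of 8.17 ± 0.17 (exposed) and 8.19 ± 0.07 (unexposed), a difference of -0.02 with an interval of -0.24 to 0.20. Its sign turned with a further quantile normalization (0.0185) and with ribosomal protein genes as the reference (0.0588). THOP1, an oligopeptidase that cleaves bradykinin, had a difference of -0.38 (limma adjusted p = 0.0510).

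In the list of signalling genes downstream of the receptors, 16 of 47 entries were measured, and the Gq, phospholipase C beta and arrestin genes were not analysed here. By limma 0 of the 16 passed, 7 (43.8%) had an unadjusted p under 0.05 beside 18.9% of all genes, and the median difference was 0.06. The neuronal nitric oxide synthase NOS1 was at 0.32 (limma adjusted p = 0.124) and the inducible cyclooxygenase PTGS2, which acts in prostaglandin synthesis, at 0.28 (0.229). The receptor kinase GRK6 was at -0.32 (0.0894). GOLM1, which the list also holds, is a Golgi protein rather than a signalling gene. It was at -0.25 (0.108) and is among the 7.

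The list around NF-kB and inducers of the B1 receptor also holds chemokines, adhesion molecules and AP-1 genes, among them the genes that passed. Of its 34 entries 20 were measured, and IL1B, IL6, IL1R1 and NFKBIA were not analysed here. Of the 20, 2 rose and 0 fell (10% beside 3.06% of all genes), with a median difference of 0.06. CCL2, a chemokine that attracts monocytes, went from 8.82, 8.73 and 9.11 in unexposed to 9.63, 9.77 and 9.37 in exposed cells, a rise of 0.70 (SE 0.13, limma adjusted p = 0.0348). FOS, a component of AP-1, rose by 0.59 (SE 0.11, limma adjusted p = 0.0344), and unlike the receptors it was lowest among exposed arrays in replicate 2, at 6.67 against 6.83 and 7.02. The NF-kB subunits NFKB1 and RELA were at 0.25 (limma adjusted p = 0.197) and -0.12 (0.268). The probe set for TNF, near the array medians, was at -0.22 (0.619).

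Other receptors for peptides and inflammatory mediators were not generally higher. Of 49 measured among 55 entries, 0 rose, 2 fell and 47 did not pass, which is 4.08% called beside 3.06% of all genes, with a median difference of 0.03. F2R, the thrombin receptor PAR1, changed from 8.83 ± 0.20 to 8.14 ± 0.18 (SD, n = 3 each), a difference of -0.69 (SE 0.12, limma adjusted p = 0.0336). GRPR, the receptor for gastrin-releasing peptide, changed from 5.20 ± 0.22 to 4.37 ± 0.16, a difference of -0.82 (SE 0.15, limma adjusted p = 0.0345), which was -0.36 and not past the threshold when its probe sets were averaged. The further protease-activated receptor F2RL2 was at -0.47 (limma adjusted p = 0.0794), and the complement receptor C5AR1 had the highest value of the list at 0.61 (0.0908). BDKRB2 thus had a larger rise than any of these 49 measured receptors. All these lists together, without BDKRB1, hold 134 measured genes. They include the other peptide receptors and the chromosome 14 neighbours, so many of them are not kinin genes. Of the 134 genes 8 passed, 6 higher and 2 lower, which is 5.97% beside 3.06%. The 8 are BDKRB2, DPP4, ERAP2, PREPL, CCL2, FOS, F2R and GRPR.

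Those calls depend on the arrays used. Over the 134 genes 6 passed without exposed replicate 3 and 0 without any other single array, by limma. The 6 include VRK1 and F2RL2, which did not pass with all arrays. ERAP2, PREPL, FOS and GRPR were lost in every fit without an array. With an array left out, 22 to 29 genes had an unadjusted p under 0.05. With all arrays this number was 31, or 23.1% beside 18.9% of all genes. The count was also 6 with arrays centred on their medians or on ribosomal protein genes, where ERAP2 and PREPL were lost. DPP4 lay between 0.74 and 0.91, CCL2 between 0.61 and 0.81, F2R between -0.79 and -0.57 and GRPR between -0.93 and -0.71 over the 6 fits without an array.

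**Figure D4:**
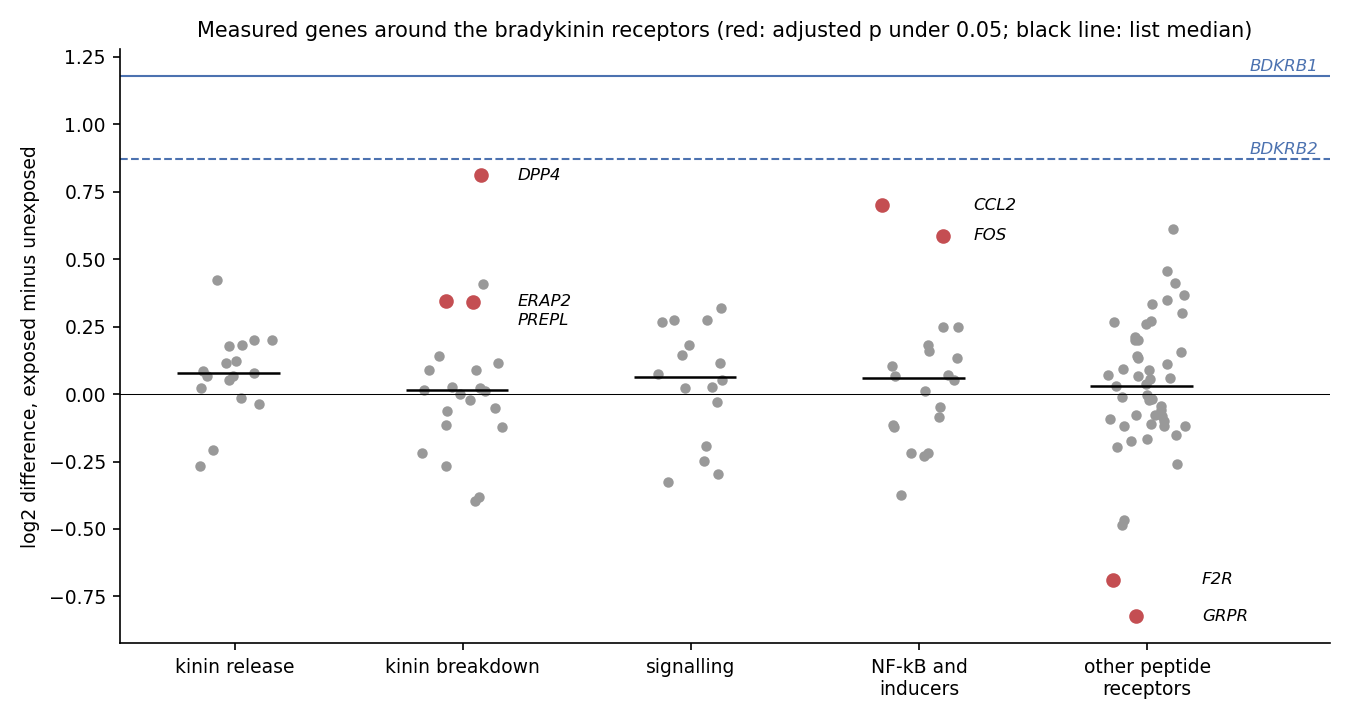
Log2 difference (exposed minus unexposed) of every measured gene in 5 lists around the bradykinin receptors, with genes past an adjusted p of 0.05 in red and named, and list medians as black lines. Blue lines give BDKRB1 at 1.18 and BDKRB2 at 0.87, above every other point shown.

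The identity of the cells was checked against fixed markers. Of the glioma list 10 of 12 genes were measured; VIM, CD44, TNC, FN1, CHI3L1 and NES were above 5 on every array, while the glial genes SOX2, OLIG2 and S100B were below 5 in both group means and GFAP had means of 4.86 ± 0.07 (unexposed) and 5.21 ± 0.14 (exposed). The mean level of the whole list was 7.49 to 7.57 over exposed and 7.56 to 7.61 over unexposed arrays. Marker lists of other cell types had means of 4.57 to 4.70 in exposed against 4.47 to 4.73 in unexposed arrays (endothelial, 5 of 7 measured), 6.25 to 6.31 against 5.97 to 6.25 (immune and microglial, 4 of 9), 4.90 to 5.12 against 4.71 to 4.88 (neuronal, 4 of 6) and 5.31 to 5.35 against 5.25 to 5.27 (epithelial, 5 of 6). In the immune and microglial list CD68 had means of 12.2 (unexposed) and 12.3 (exposed), and CSF1R of 5.57 and 5.77. CD14 (2.97 and 3.33) and CX3CR1 (3.66 and 3.70) had means below the array medians. Among the members of these lists of other cell types MAP2, a microtubule protein of neurons, rose by 0.91 (limma adjusted p = 0.0287) and the others did not pass. The MAP2 call was lost without unexposed replicate 2 (0.0844), unexposed replicate 3 (0.0988), exposed replicate 1 (0.120) or exposed replicate 2 (0.105), as well as with the replicate block (0.127), without a variance trend (0.159) and without variance moderation (0.132). The part of these shifts in the receptor values was not tested. In bulk RNA a change in the share of cells that express a gene and a change in its RNA per cell cannot be told apart.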

How the data were processed

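Total RNA of 6 U-87 MG cultures was hybridised to 1-colour Affymetrix arrays, and groups were taken from the sample titles; the description field of exposed samples also contains the word control. The authors deposited log2 values summarised per probe set with RMA, per the submitters' processing notes, which list Expression Console 3.0 (Affymetrix) and Transcriptome Analysis Console 3.0; other settings: not given in the sources. RMA makes array distributions alike, so a change in total RNA per cell is not visible. There are no detection calls, and precision is limited by having 3 arrays a group.

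Of 53617 probe sets 16098 carried 1 gene symbol and others have no name here. Each of the 14884 symbols matched the RefSeq table of GRCh38.p14, used for names and gene order alone. Promoter windows came from RefSeq and were found for 6 of the 7 genes. Limma 3.58.1 in R 4.3.3 (lmFit, two-sided; eBayes with a trend of variance on the mean) was fitted to all probe sets without covariates or filter, with Benjamini-Hochberg adjustment over genes at 0.05. The fit was tested on simulated data. Genes and lists were chosen with earlier results of these data known, and all adjusted p-values are from limma.

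Named are the 7 kinin genes, in each list the genes past the threshold or, where none passed, the 2 with the smallest p in each direction, and the 10 genes most like BDKRB1; others were named after their values were seen. Same-numbered replicates were checked for a shared shift, and the main fit did not pair them. Alternatives were 10 other settings and leaving out each of 6 arrays. Figures were drawn with matplotlib 3.10.9.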

Additional observations from a re-analysis of the deposited data

How the results depend on the processing

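Settings that change only the variance model, the adjustment, the block or the dim probe sets cannot move the log2 difference of a receptor. Averaging probe sets cannot move that of BDKRB1 either, which had a single probe set. In the other settings the difference of BDKRB1 moved by less than its spread between replicates. It was 0.97 to 1.31 over the fits that left out an array. BDKRB2 kept its direction in the settings that could move it (0.76 to 0.97 with an array left out, 0.53 with its probe sets averaged). Its call was kept in 8 of all 16 alternatives. At an unchanged 0.87 its call was lost with the replicate number as a block (limma adjusted p = 0.127), without a mean-variance trend (0.159) and without variance moderation (0.150). Of all genes, 456 passed in the fit reported, 753 when dim probe sets (below the median) were left out, 1173 when probe sets of a gene were averaged, 162 with adjustment over all probe sets, 4 without variance moderation, and 0 with the replicate block or without a trend (2286 and 2220 at an unadjusted p under 0.05); with an array left out it was 0 to 325. Of the 134 genes of the pooled lists 8 passed, 14 with the mean of probe sets, 6 with either centring of arrays and 2 with adjustment over all probe sets. The count was 0 with the replicate block, without a trend or without moderation (26, 27 and 29 at an unadjusted p under 0.05), and 0 to 6 with an array left out. The cause of these changes in count was not tested, and the fit to means of probe sets also held fewer features. The correlation of deviations between same-numbered arrays was -0.07 to -0.03, so no strong shared shift of same-numbered arrays was seen over all genes. It cannot show whether same-numbered cultures were handled together, which the labels do not say.

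Values near 0 changed sign in some settings. KNG1 was at 0.0637 with ribosomal protein genes as the reference of each array, which moved the median of all genes to 0.08, at 0.0575 without unexposed replicate 2 and at 0.0326 without exposed replicate 1. With arrays left out CPM ranged from -0.249 to 0.0219, CPD from -0.00484 to 0.0867, ACE from -0.0102 to 0.179, KNG1 from -0.0660 to 0.0575 and MME from -0.0985 to 0.0682; MME was also at 0.0185 with a further quantile normalization and 0.0588 with the ribosomal reference. Dim probe sets such as those of KNG1, ACE and KLK1 lie near the array medians, where a change in RNA is hardest to see.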
